A study of Mus musculus with 18 samples.

Results

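The 7 genes Ada, Ly6m, Clca4a, Pmp22, Sult6b2, Creb3l3 and Nt5e were examined out of 32286 gene features counted in single cells of the mouse ileum. They were chosen by their levels in the lineage-traced libraries, low in those labelled Setdb1-KO and high in WT, so the levels in those libraries are given as a description, with no test. Setdb1 is a histone methyltransferase that places repressive marks on lysine 9 of histone H3, and the study asked how its loss affects the progeny of Lgr5+ intestinal stem cells. For these genes, the share of enterocyte-like cells and the levels within those cells are given separately.

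There were 8 libraries in 4 groups of 2, all from mice on the C57Bl6 background, 60 to 65 days old, that had received 1 injection of tamoxifen (70 mg/kg) 5 days earlier. Every mouse carried Lgr5-GFP-CreERT2, a knock-in that makes GFP and a tamoxifen-activated Cre in Lgr5+ stem cells and that is silenced in part of the crypts. In the Lgr5+ sort, WT mice carried this allele alone and Setdb1-KO mice carried it with Setdb1 lox/lox. In the lineage-traced experiment both genotypes carried in addition nTnG, a reporter in which Cre turns red cells permanently green, so that the GFP sort also takes the descendants of the stem cells. Cells came from preparations enriched for crypts by repeated shaking, from which most of the villus is discarded, and GFP+ cells were then sorted by flow cytometry. Libraries of a group were numbered as replicates, and the p-values below measure the spread between those libraries.

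Enterocytes are the absorptive cells of the intestinal villus. They are born in the crypt and change their gene expression while they climb: cells at the villus bottom make antimicrobial proteins, cells in the middle make transporters for sugars and amino acids, and cells near the tip make apolipoprotein A-IV, purine-handling enzymes and surface proteins before they are shed. Among the 7 genes, Nt5e (CD73) releases adenosine from AMP outside the cell and Ada (adenosine deaminase) turns adenosine into inosine. Creb3l3 is a transcription factor held in the endoplasmic reticulum membrane, set free by proteolysis, that activates genes of lipid transport in liver and intestine. Ly6m belongs to the Ly6 family of small surface proteins, Clca4a to the Clca family of secreted and membrane-bound regulators of chloride conductance, Pmp22 to a family of tetraspan membrane proteins of myelin and epithelia, and Sult6b2 to the sulfotransferases.

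All 7 genes are protein coding and lie on 7 different chromosomes of the GRCm38 build. Ada spans chr2:163726584-163750239 on the minus strand, Ly6m chr15:74876987-74897021 (minus), Clca4a chr3:144952480-144975045 (minus) and Pmp22 chr11:63128982-63159547 (plus). Sult6b2 spans chr6:142785204-142804502 (minus), Creb3l3 chr10:81084324-81098874 (minus) and Nt5e chr9:88327197-88372092 (plus). RefSeq promoter windows of GRCm38.p6, 250 bases before to 50 after a transcription start, were at hand for 5 of the 7 genes, in 9 windows. A few of them are shown to give the sequence behind the genes that differ in the results below: Ada, whose level followed the villus index most steeply, and Sult6b2 and Creb3l3, which alone of the 7 had UMIs in the enterocyte-like barcodes of all 4 libraries of the Lgr5+ sort. They are printed 5′ to 3′ on the gene's strand, with AGATAA (the GATA factor motif) and the reverse complement TTTATA of the TATA-box letters in capitals.
Ada promoter (chr2:163750190-163750489): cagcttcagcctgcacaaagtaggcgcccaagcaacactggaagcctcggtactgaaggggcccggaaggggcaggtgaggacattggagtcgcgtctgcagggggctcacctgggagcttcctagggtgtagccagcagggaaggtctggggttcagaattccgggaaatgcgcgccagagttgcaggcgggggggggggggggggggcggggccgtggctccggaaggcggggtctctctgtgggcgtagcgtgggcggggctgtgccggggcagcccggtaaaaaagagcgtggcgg
Sult6b2 promoter (chr6:142804417-142804716): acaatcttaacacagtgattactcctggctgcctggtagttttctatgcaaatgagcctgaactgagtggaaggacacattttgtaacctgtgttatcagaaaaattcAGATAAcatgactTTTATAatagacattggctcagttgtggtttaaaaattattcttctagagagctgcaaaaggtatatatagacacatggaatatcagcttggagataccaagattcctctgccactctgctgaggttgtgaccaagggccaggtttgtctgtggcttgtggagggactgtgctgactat
Creb3l3 promoter (chr10:81092542-81092841): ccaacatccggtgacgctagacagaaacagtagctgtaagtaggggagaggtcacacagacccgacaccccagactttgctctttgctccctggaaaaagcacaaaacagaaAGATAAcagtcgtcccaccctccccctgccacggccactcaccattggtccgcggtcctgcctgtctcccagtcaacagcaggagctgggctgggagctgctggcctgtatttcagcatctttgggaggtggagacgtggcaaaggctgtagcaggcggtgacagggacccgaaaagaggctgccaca
G and C made up 68.0% of the Ada window, 41.0% of the Sult6b2 window and 57.7% of this Creb3l3 window, against a median of 52.7% over all windows. The letters AGATAA stood in the Sult6b2 window 142 bases before the start and in this Creb3l3 window 138 bases before the start, and were present on either strand in 11.2% of 32851 windows. No other member window held them. That includes the other Creb3l3 window, chr10:81098823-81099122, which lies at the 5′ end of the gene span given above and is not printed. TATAAA stood on the opposite strand of the Sult6b2 window (13.6% of all windows hold it on either strand). No member window held AAAGTCCA (HNF4, 1.25% of all windows), TGACGT (the core of the cyclic AMP response element, 7.51%) or TTTATG (CDX, 11.9%). A match is a description of letters only.

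Barcodes with 1000 (Lgr5+ sort) or 500 (lineage-traced) to 18000 unique molecular identifiers (UMIs, each counting 1 captured mRNA molecule) and under 5% mitochondrial UMIs were kept. The libraries held 16881518 to 81876035 UMIs, and 2894 to 11423 barcodes were kept in each. Median UMIs per kept barcode were 4686 to 9336 in the Lgr5+ sort and 961 to 2085 in the lineage-traced libraries. Pairs of libraries shared 3 to 34 kept barcodes, at most 0.449% of a library. Levels are given as CPM, UMIs of a gene per 1000000 UMIs of the barcodes summed. The labels call the cells stem cells: 25.4 to 44.8% of kept barcodes of the Lgr5+ sort and 3.14 to 9.74% of the lineage-traced ones passed the limit for stem cell markers such as Lgr5 and Olfm4. Setdb1 itself was at 11.3 and 9.93 CPM in the WT and 5.32 and 6.21 CPM in the Setdb1-KO libraries of the Lgr5+ sort. This difference was −0.85 ± 0.14 (log2 ± SE, edgeR adjusted p = 0.0470), and leaving out WT 1, WT 2 or Setdb1-KO 1 moved the edgeR adjusted p to 0.136, 0.103 and 0.105, as did applying no low-count filter (0.122). In the lineage-traced libraries Setdb1 was at 6.11 and 4.21 CPM in WT and 10.4 and 7.85 CPM in those labelled Setdb1-KO, a difference of +0.24 ± 0.23 (log2 ± SE, edgeR adjusted p = 0.603). Because 3′ counting reads the gene outside the floxed exon, these counts do not measure the deletion itself. The direction for Setdb1 differed between the experiments, and the cause was not tested.

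In the lineage-traced WT libraries all 7 genes were detected, and in the libraries labelled Setdb1-KO each of them was lower. Adenosine deaminase was the most abundant by UMIs: Ada was at 102 and 97.4 CPM in WT and at 3.33 and 3.22 CPM in Setdb1-KO. Its partner enzyme in adenosine handling, Nt5e, was scarce, at 2.46 and 1.61 CPM in WT against 0 and 0.299 CPM. Pooled over libraries, WT was 31.0-fold higher for Ada (95% counting interval 25.9 to 37.5) and 9.85-fold higher for Nt5e (5.00 to 22.8), the latter resting on 60 and 8 UMIs. These intervals, and all below, cover counting error only. For ratios they take the error of the Setdb1-KO count and hold the WT level fixed, which makes them too narrow. The transcription factor gene Creb3l3 was at 30.9 and 29.2 CPM in WT and kept 4.89 and 3.70 CPM in Setdb1-KO. Its pooled ratio of 7.60 (6.45 to 9.02) was the smallest of the 7.

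Ly6m, Clca4a and Pmp22, the genes of surface and membrane proteins, were low as well. Ly6m was at 55.7 and 60.4 CPM in WT and at 0.111 and 0.374 CPM in Setdb1-KO, which is 1553 UMIs against 11. Clca4a was at 56.1 and 47.3 CPM against 1.67 and 0.972 CPM. Pmp22 was at 17.2 and 15.5 CPM against 0.333 and 0.561 CPM. The pooled WT to Setdb1-KO ratio was 185 (104 to 371) for Ly6m, 46.6 (34.4 to 65.0) for Clca4a and 33.1 (21.0 to 55.9) for Pmp22. The sulfotransferase gene Sult6b2 was at 45.4 and 33.5 CPM in WT and at 0.667 and 0.673 CPM in Setdb1-KO, a ratio of 62.3 (41.9 to 97.2). For each of the 7 genes both WT libraries lay above both Setdb1-KO libraries, which is how they were chosen, and 8.73% of the 12205 genes tested in this contrast passed an adjusted p of 0.05 in edgeR (7.19% lower, 1.54% higher). In such sums fewer cells of a type and less RNA per cell cannot be told apart.

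**Figure D1:**
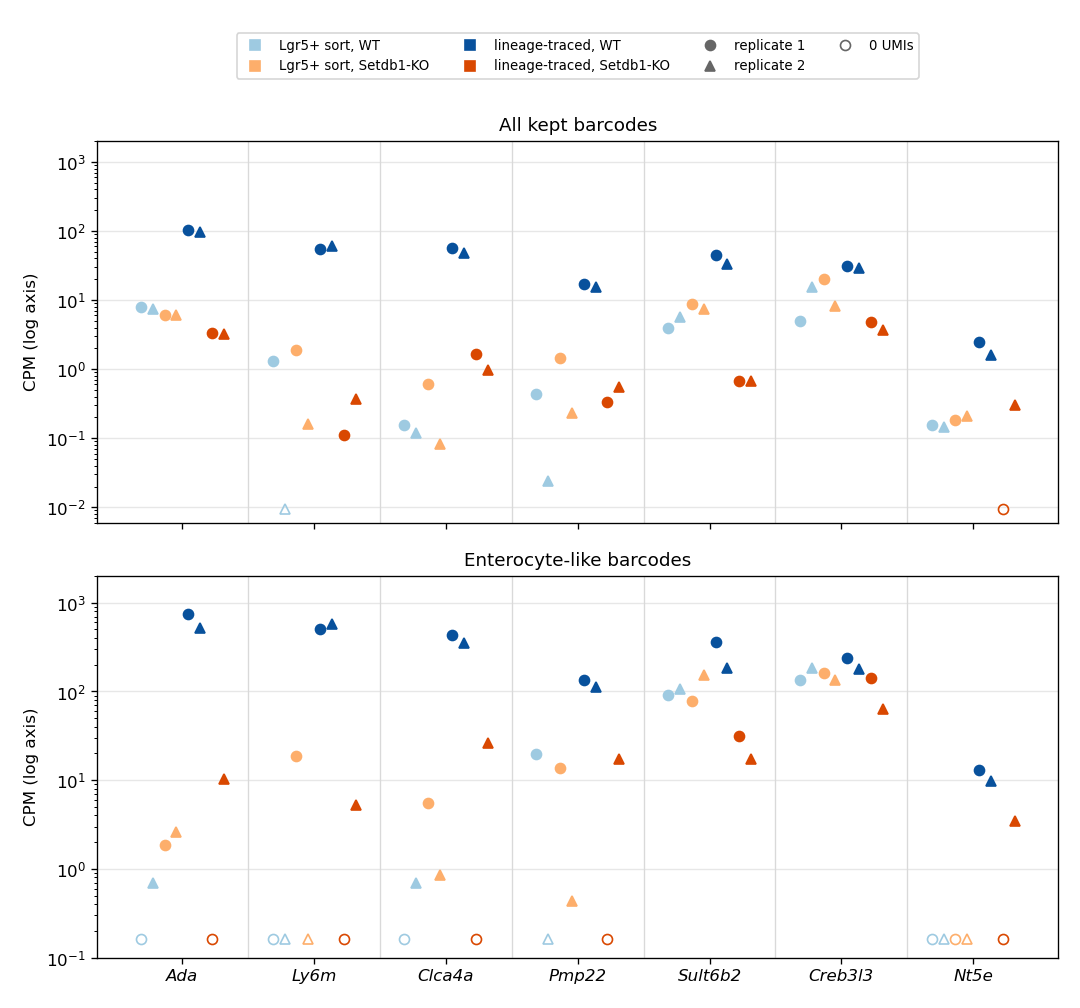
Level of each of the 7 genes (CPM, log axis) in each library, over all kept barcodes (top) and enterocyte-like barcodes (bottom); colours mark experiment and genotype (dark blue and dark orange for lineage-traced WT and Setdb1-KO, pale blue and pale orange for the Lgr5+ sort), circles and triangles replicates 1 and 2, and open symbols along the lower edge 0 UMIs. The lineage-traced WT points stand above the Setdb1-KO points for every gene, and in enterocyte-like barcodes of the Lgr5+ sort Sult6b2 and Creb3l3 are the genes high in all 4 libraries (Sult6b2 78.9 to 153 CPM).

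Enterocyte-like barcodes were called where UMIs of enterocyte markers such as Alpi, Apoa1, Apoc3, Fabp1, Fabp2, Fabp6, Rbp2, Mttp and Sis made up at least 2% of the barcode. None of the 7 genes is among these markers. In the lineage-traced WT libraries 972 of 7860 and 277 of 3882 barcodes passed, 9.75% ± 3.70 (SD, n = 2). In those labelled Setdb1-KO 32 of 4816 and 152 of 10239 passed, 1.07% ± 0.580 (SD, n = 2). Measured by UMIs in place of barcodes, enterocyte-like barcodes held 6.78% of UMIs in WT and 1.44% in Setdb1-KO. The share of barcodes went the other way in the Lgr5+ sort, 2.44% ± 1.07 in WT and 5.99% ± 3.21 in Setdb1-KO (SD, n = 2 each). There the exact two-sided permutation test gave p = 0.333, the smallest that 2 against 2 libraries allow. Barcodes within 1.5 to 2.5% of marker UMIs, near the limit, numbered 324 and 167 in lineage-traced WT and 32 and 84 in Setdb1-KO.

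The composition of the marker UMIs differed as well. Fabp1, a fatty-acid binding protein, was at 9737 and 9257 CPM in the lineage-traced WT enterocyte-like barcodes and at 21726 and 18168 CPM in those labelled Setdb1-KO. Apoa1, an apolipoprotein of chylomicrons, was at 5329 and 4720 CPM in WT and at 452 and 574 CPM in Setdb1-KO. The Lgr5+ sort held Apoa1 at 2442 to 3964 CPM, so that the Setdb1-KO class of the lineage-traced libraries stood apart in its mix of markers. When Fabp1 and Apoa1 were left out of the markers, 694 and 194 WT and 15 and 79 Setdb1-KO barcodes passed.

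Among enterocyte-like barcodes all 7 genes were again lower in the libraries labelled Setdb1-KO. Ada was at 752 and 514 CPM in WT and at 0 and 10.4 CPM in Setdb1-KO, a pooled ratio of 73.6 (33.8 to 201). Ly6m was at 503 and 574 CPM against 0 and 5.19 CPM, the latter being 3 UMIs, a ratio of 112 (38.3 to 542). Clca4a was at 431 and 353 CPM against 0 and 25.9 CPM. In Setdb1-KO 1 a count of 0 allows up to 46.8 CPM, since its 32 enterocyte-like barcodes held 64116 UMIs, which bounds the absence weakly. Pmp22 was at 134 and 113 CPM against 0 and 17.3 CPM. Sult6b2 was at 361 and 182 CPM against 31.2 and 17.3 CPM. For Clca4a, Pmp22 and Sult6b2 the pooled ratios were 17.6 (10.6 to 31.4), 8.27 (4.50 to 17.2) and 16.7 (9.57 to 32.4).

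Creb3l3 and Nt5e differed least within enterocyte-like barcodes. Creb3l3 was at 236 and 180 CPM in WT and at 140 and 64.0 CPM in Setdb1-KO, with a pooled ratio of 3.08 (2.31 to 4.21). Nt5e was at 13.01 and 9.76 CPM against 0 and 3.46 CPM, with 2 UMIs in Setdb1-KO and a ratio of 3.90 (1.08 to 32.2).

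As a description, the share of enterocyte-like UMIs and the levels inside and outside those barcodes were exchanged between genotypes. With the WT levels in each compartment but the Setdb1-KO share of enterocyte-like UMIs, Ada would be at 68.6 CPM over all barcodes instead of 99.7 CPM. With the Setdb1-KO levels but the WT share it would be at 3.34 CPM, next to the 3.28 CPM seen. Ly6m gave 30.6 CPM from the share alone and 0.353 CPM from the levels alone, between 58.0 CPM in WT and 0.243 CPM in Setdb1-KO. Sult6b2 gave 25.7 and 2.00 CPM, between 39.4 and 0.670 CPM. Creb3l3 gave 19.7 CPM from the share and 9.86 CPM from the levels, between 30.1 CPM in WT and 4.30 CPM in Setdb1-KO. Clca4a, Pmp22 and Nt5e gave 32.0, 10.1 and 1.49 CPM from the share and 1.86, 0.832 and 0.224 CPM from the levels. The levels include barcodes outside the class, where Ada was at 60.4 CPM in WT and 3.21 CPM in Setdb1-KO. Enterocytes below the marker limit thus enter as level, and fewer such cells and less RNA per cell cannot be told apart. RNA outside cells enters as level too. Outside the class WT held Ada at 60.4 and Ly6m at 23.2 CPM, below the WT empty droplets described further down. The part of such RNA was not tested, so the values from the levels alone do not measure a drop within cells. Of each gene's WT UMIs, 38.3 to 63.7% lay in enterocyte-like barcodes. For Ada most of the others lay in barcodes that met no marker limit, with 34.4 and 60.7% of the Ada UMIs of the WT libraries.

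**Figure D2:**
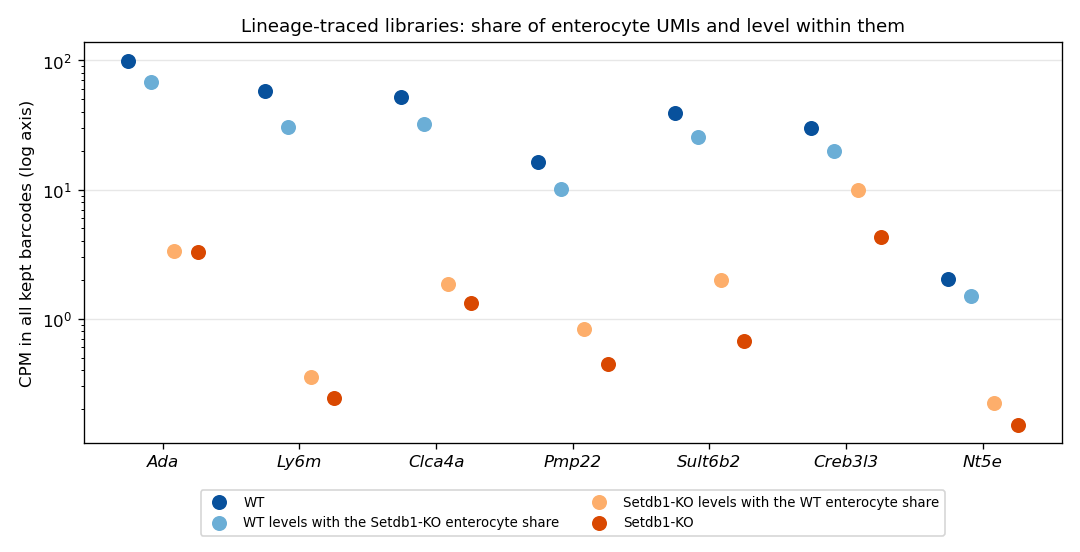
Mean CPM over all kept barcodes of the lineage-traced libraries (log axis) for each gene: WT (dark blue), WT levels with the Setdb1-KO enterocyte share of UMIs (light blue), Setdb1-KO levels with the WT share (pale orange) and Setdb1-KO (dark orange). Changing the share alone leaves Ada at 68.6 CPM and Ly6m at 30.6 CPM, and changing the levels alone brings Ada to 3.34 CPM and Ly6m to 0.353 CPM, with Creb3l3 at 9.86 CPM. The levels include barcodes outside the enterocyte-like class and the free RNA in them.

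Enterocyte-like barcodes were next placed along the villus by an index that used none of the 7 genes. The index was the share of villus-top UMIs (Slc28a2, Enpp3, Apoa4, Klf4, Egfr, Krt20, Slc15a1 and Mxd1) among villus-top and villus-bottom UMIs (Reg3b, Reg3g, Nlrp6, Il18, Ccl25, Lypd8, Gsdmc2, Gsdmc4 and Dmbt1), in barcodes with at least 3 of them. Its median was 0.33 and 0.22 in the lineage-traced WT libraries and 0 in both libraries labelled Setdb1-KO. An index of 0.5 or more was reached by 385 of 908 WT barcodes (42.4%, exact binomial interval 39.2 to 45.7) and by 85 of 263 (32.3%, 26.7 to 38.3). In Setdb1-KO it was reached by 0 of 23 barcodes, which allows a share of up to 13.04%, and by 4 of 147 (2.72%, 0.746 to 6.82). The median index in the Lgr5+ sort was 0.03 to 0.06 and 0 to 1.25% of barcodes reached 0.5. Barcodes rich in villus-top RNA thus made up a large share in the lineage-traced WT libraries and a small one in the other 6.

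**Figure D3:**
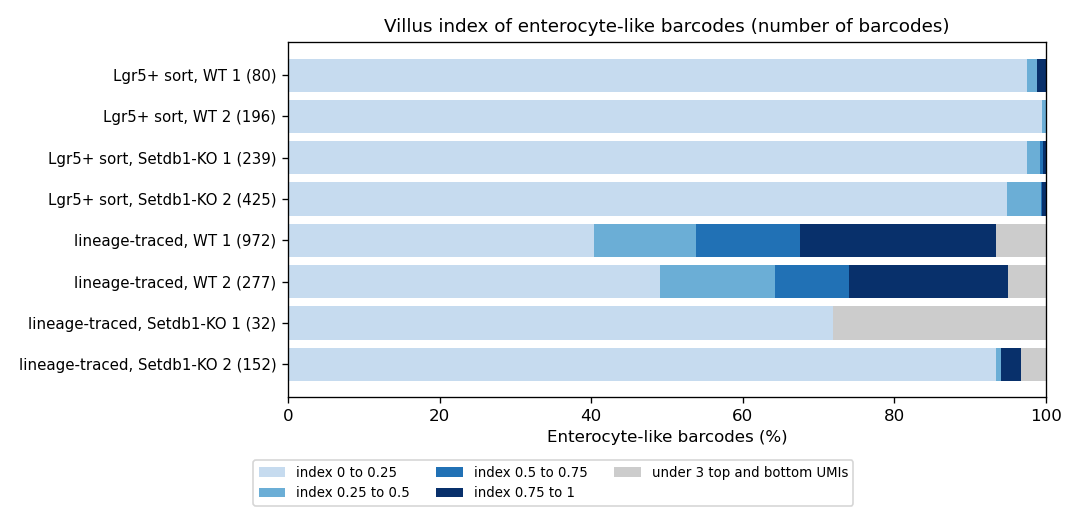
Enterocyte-like barcodes of each library (percent, with the number of barcodes in brackets) by villus index in 4 bins, darker meaning more villus-top UMIs, and grey for barcodes with under 3 index UMIs. The 2 lineage-traced WT libraries have barcodes in all bins (392, 131, 133 and 252 in WT 1), and in the other 6 libraries 71.9 (Setdb1-KO 1, lineage-traced, 23 of 32 barcodes, the rest grey) to 99.5% of the barcodes lie in the lowest bin.

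Within the lineage-traced WT libraries the 7 genes followed the index in different ways. Ada was higher in each successive bin, from 70.4 to 270, 504 and 2862 CPM in WT 1 and from 51.4 to 419, 657 and 2909 CPM in WT 2. A single enterocyte-like barcode held 58 of the 263 Ada UMIs of this class in WT 2, and 41 of 1040 in WT 1. Ly6m peaked in the third bin (index 0.5 to 0.75) in both, at 1164 and 1909 CPM, and was at 566 and 727 CPM in the last. Clca4a also peaked there, at 853 and 1503 CPM, with 742 and 163 CPM in the last bin. These genes were thus not all highest where Ada was. Pmp22 was at 85.7 CPM in the first and 148 to 216 CPM in the other bins of WT 1, and at 87.8 and 134 to 202 CPM in WT 2. Sult6b2 was at 113 CPM in the first and 847 CPM in the last bin of WT 1, and at 45.4 and 549 CPM in WT 2. Creb3l3 went from 91.8 to 525 CPM in WT 1 and from 96.8 to 341 CPM in WT 2, and Nt5e from 0 to 37.3 CPM and from 3.03 to 29.7 CPM. In both libraries, then, all 7 genes were lowest in the first bin except Clca4a in WT 2. Ada had its widest step in CPM, upward, between the last 2 bins, though as a fold the first step was wider in WT 2.

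**Figure D4:**
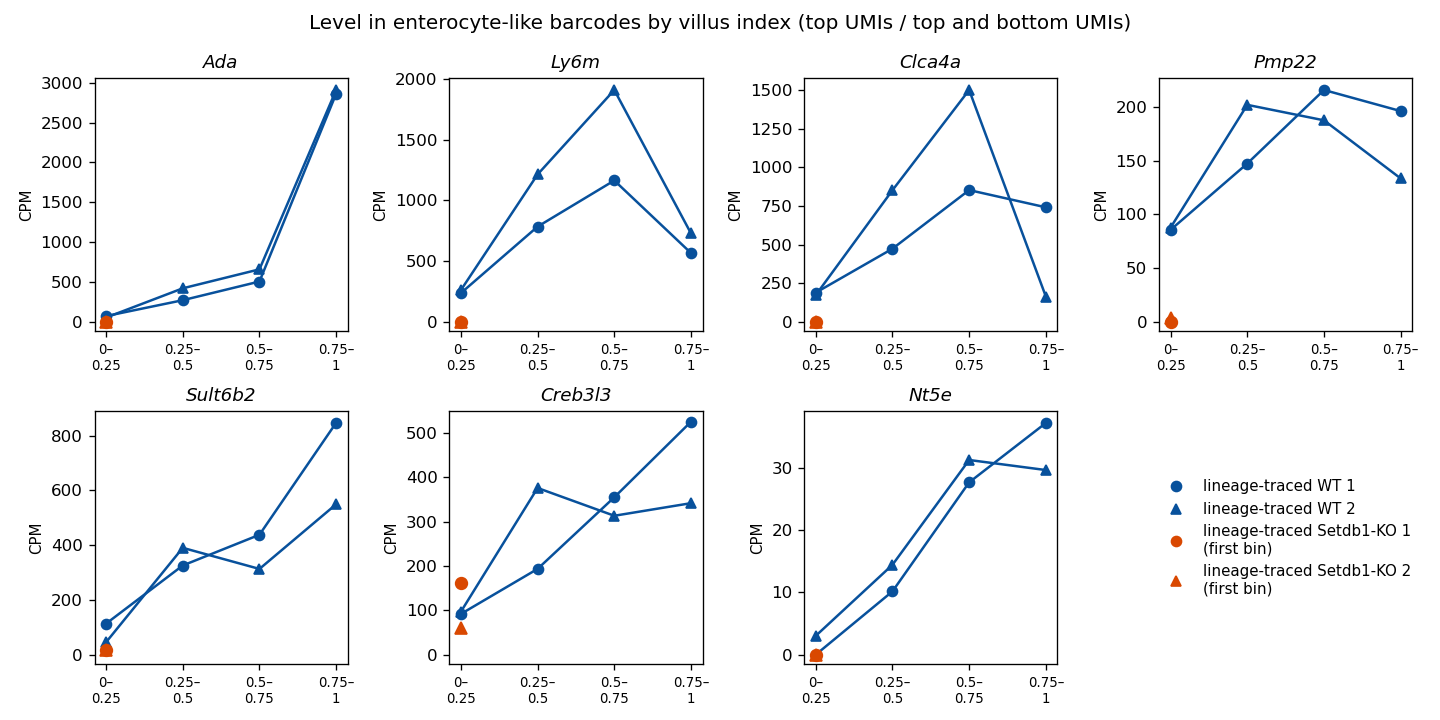
CPM of each gene in enterocyte-like barcodes by villus index bin (index of villus-top UMIs over villus-top and villus-bottom UMIs), for the lineage-traced WT libraries (blue) and for the first bin of the lineage-traced Setdb1-KO libraries (dark orange). Ada climbs to 2862 and 2909 CPM in the last bin, while Ly6m and Clca4a peak in the third.

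Genotypes were then set side by side within the lowest bin, where both had barcodes. In the lowest bin (index under 0.25) the 528 lineage-traced WT barcodes held Ly6m at 244 CPM, Clca4a at 183 CPM and Ada at 64.0 CPM. The 165 Setdb1-KO barcodes held no UMI of these 3 genes among 621763, so that WT was at least 50.5-fold, 37.9-fold and 13.3-fold higher, taking 3 counts over the group as the floor. Pmp22 was at 86.4 CPM in WT and at 3.22 CPM (2 UMIs) in Setdb1-KO, a ratio of 26.8 (7.43 to 222). Sult6b2 was at 90.4 and 17.7 CPM, a ratio of 5.11 (2.86 to 10.2). Creb3l3 was at 93.5 and 69.2 CPM, a ratio of 1.35 (1.00 to 1.87), and its libraries overlapped, with 91.8 and 96.8 CPM in WT and 161 and 60.1 CPM in Setdb1-KO. Nt5e was at 1.02 CPM in WT and 0 in Setdb1-KO, both below the floor of 4.82 CPM. The genotypes were not alike in index genes even there: Apoa4 was 6.12-fold higher in WT (4.26 to 9.14), so that position within the bin and level cannot be told apart.

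RNA outside cells moved with this comparison. Barcodes of 10 to 100 UMIs, taken as empty droplets, held Ada at 104 and 70.0 CPM in the lineage-traced WT libraries, above the lowest index bin there. They held Ly6m at 30.1 and 31.2 CPM and Clca4a at 32.5 and 24.4 CPM, which is below that bin. Empty droplets of the Setdb1-KO libraries held Ada at 40.3 and 14.8 CPM and Ly6m at 28.4 and 11.1 CPM, from 17, 4, 12 and 3 UMIs. These are above the kept Setdb1-KO barcodes. The 8 Paneth cell markers, which enterocytes should lack, made up a median of 8.90 and 10.6% of an enterocyte-like barcode in lineage-traced WT and of 0.823 and 1.35% in Setdb1-KO. They made up 33.6 and 35.2% of the UMIs of empty droplets in WT and 14.9 and 22.6% in Setdb1-KO. The part of free RNA in the low-index levels was not tested.

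Detection per barcode was compared at equal depth. With each barcode thinned to 500 UMIs, 42.6 and 37.0% of enterocyte-like barcodes of lineage-traced WT were expected to hold a UMI of any of the 7 genes, and these compare with 7.83 and 5.25% in Setdb1-KO. The expected share in the Lgr5+ sort was 10.2 and 13.1% in WT and 10.8 and 12.4% in Setdb1-KO. Paneth-like barcodes, which should lack these genes, gave 2.16 and 3.54% in lineage-traced WT and 0.893 and 0% in Setdb1-KO. Without thinning, the enterocyte-like shares were 59.3 and 57.8% in lineage-traced WT, 28.1 and 24.3% in Setdb1-KO and 57.6 to 75.7% in the Lgr5+ sort, and the Paneth-like shares 14.8 and 21.1% in lineage-traced WT at a median of 8551 and 6555 UMIs. Median UMIs of enterocyte-like barcodes were 1135 and 1279 in lineage-traced WT, 903 and 3082.5 in Setdb1-KO, and 5144 to 11407 in the Lgr5+ sort, so that the unthinned shares cannot be set side by side.

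Few barcodes of the libraries labelled Setdb1-KO held the genes together. UMIs of 4 or more of the 7 genes were found in 61 of 972 enterocyte-like barcodes of WT 1 (6.28%, exact binomial interval 4.83 to 7.99) and in 13 of 277 of WT 2 (4.69%, 2.52 to 7.89). In Setdb1-KO they were found in 0 of 32, which allows up to 9.38%, and in 2 of 152 (1.32%, 0.160 to 4.67). Those 2 barcodes held all 6 Ada, 3 Ly6m, 15 Clca4a and 2 Nt5e UMIs and 8 of the 10 Pmp22 UMIs of the enterocyte-like barcodes labelled Setdb1-KO. Both had a villus-top profile, with an index of 0.97 and 1 and 46 and 29 UMIs of Apoa4. Without them the enterocyte-like barcodes of Setdb1-KO 2 held Ada, Ly6m, Clca4a and Nt5e at 0 CPM and Pmp22 at 3.48 CPM. Sult6b2 was at 17.4 CPM and Creb3l3 at 59.2 CPM. Within this class the levels of 5 genes in that library therefore came almost wholly from 2 barcodes, and those of Sult6b2 and Creb3l3 did not. Outside the class the library held more, such as 59 Ada UMIs in barcodes that met no marker limit.

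Pairs of the 7 genes differed in how often they shared a WT enterocyte-like barcode. Of 126 barcodes of WT 1 with a Ly6m UMI, 73.8% also held Clca4a and 47.6% Pmp22, against 8.39 and 6.62% of the barcodes without Ly6m. WT 2 gave 70.3 and 40.5% of 37 barcodes, against 10.8 and 5.83%. Clca4a and Pmp22 were thus found more often in barcodes with Ly6m than in those without it. Sult6b2 lay elsewhere: of 242 barcodes with it in WT 1, 5.79% held Ly6m and 2.07% Pmp22, against 15.3 and 15.2% of those without. In WT 2, 0 of 50 barcodes with Sult6b2 held Ly6m and 0 held Pmp22, which allows up to 6% each, against 16.3 and 12.8% of those without. Both Ly6m and Sult6b2 were found more often in barcodes with Ada than in those without it. Ada barcodes held Ly6m in 24.1 and 31.0% of cases, against 9.46 and 8.68% of those without Ada, and Sult6b2 in 36.6 and 29.3%, against 21.2 and 15.1%. Creb3l3 barcodes held Ly6m in 16.96 and 25.8% of cases, against 11.8 and 9.77%. They held Sult6b2 in 34.4% in WT 1, against 22.1% of those without Creb3l3, but in 12.9% in WT 2, against 19.5%. Nt5e, present in 14 and 5 barcodes, was found with Clca4a in 14 and 3 of them and with Sult6b2 in none. Median UMIs of barcodes with and without Sult6b2 were 1337 and 1071 in WT 1 and 1325.5 and 1273 in WT 2.

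**Figure D5:**
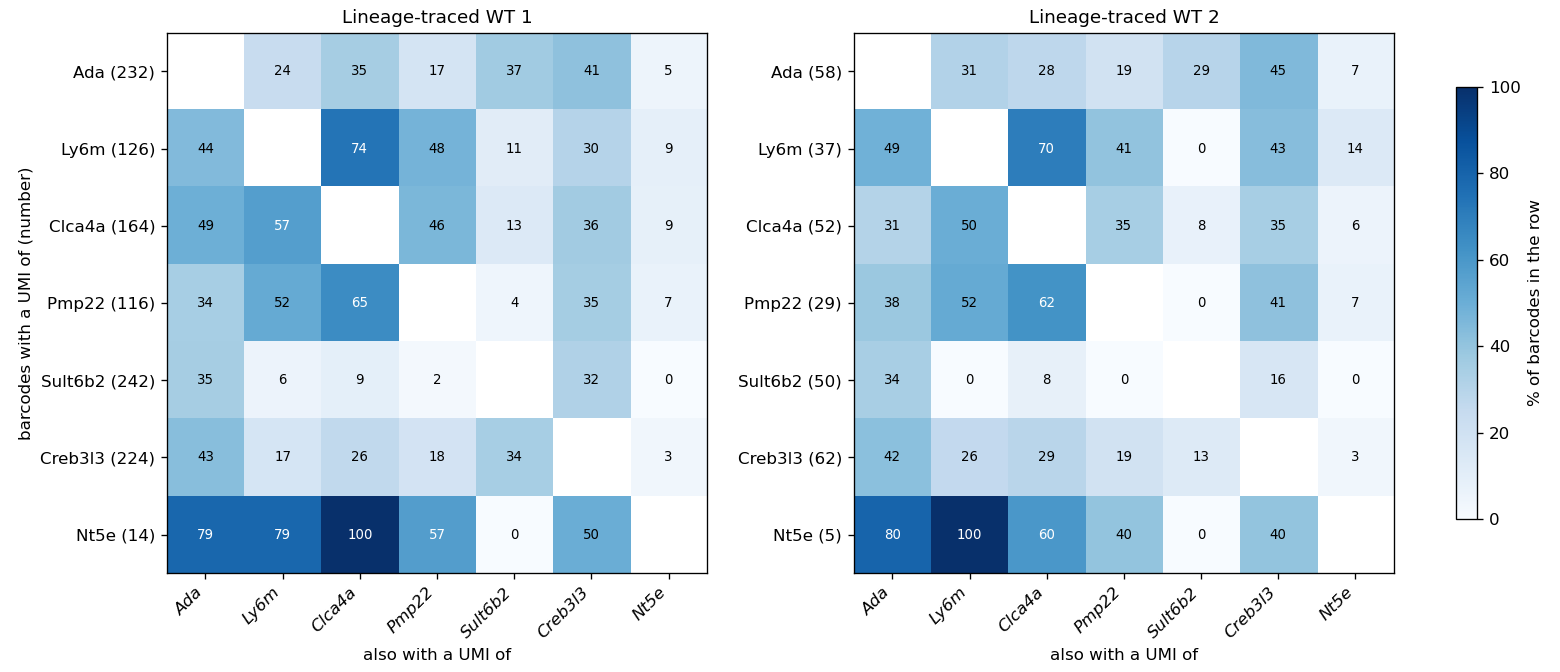
For the 2 lineage-traced WT libraries, percent of enterocyte-like barcodes with a UMI of the row gene (number in brackets) that also held a UMI of the column gene, with darker blue for a higher percent. Ly6m, Clca4a and Pmp22 form a dark block (73.8% of Ly6m barcodes of WT 1 with Clca4a), and the Sult6b2 row is light for those 3 genes (5.79% with Ly6m).

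The Lgr5+ sort was not used to choose the genes, and there the genotypes could be tested. Few of its cells were rich in villus-top RNA: 1 and 0 WT and 2 and 3 Setdb1-KO enterocyte-like barcodes reached an index of 0.5. Only 1 of 608 WT Ada UMIs lay in enterocyte-like barcodes, so the test of Ada over all barcodes covers mainly other cells. These tests therefore cannot decide on levels at the villus top. The paper describes mature enterocytes of this sort as co-purifying cells without GFP, owing to gating and incomplete enrichment. It counts immature enterocytes among the clusters with GFP mRNA. How the enterocyte-like barcodes divide between these 2 kinds was not tested. Without nTnG the mature cells are not marked as descendants of recombined stem cells, so whether they had lost Setdb1 cannot be told. The genes are given beside all genes tested, of which 0.527% were lower and 0.812% higher in Setdb1-KO. Of the 7 genes, 5 passed the filter on low counts over all kept barcodes, and 0 of these 5 passed an adjusted p of 0.05 in edgeR, while 1.34% of all 13662 genes did. At an unadjusted p under 0.05 there were 2 of the 5, Ada and Sult6b2, beside 2388 of all 13662 genes, and DESeq2 also called 0. Ada was at 7.90 and 7.33 CPM in WT and 6.16 and 6.02 CPM in Setdb1-KO, a difference of −0.31 ± 0.12 (log2 ± SE, adjusted p = 0.261). Sult6b2 was at 3.92 and 5.74 CPM in WT and 8.87 and 7.50 CPM in Setdb1-KO, +0.75 ± 0.22 (adjusted p = 0.145; DESeq2, 0.0580). Ada was thus lower and Sult6b2 higher in Setdb1-KO, and neither difference passed the threshold. Creb3l3 was at 5.04 and 15.6 CPM in WT and 19.9 and 8.18 CPM in Setdb1-KO, so that the genotypes overlapped (0.37 ± 0.55, edgeR adjusted p = 0.785).

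The remaining 4 genes were scarce in these libraries. Ly6m was at 1.32 and 0 CPM in WT and 1.92 and 0.163 CPM in Setdb1-KO (0.50 ± 1.35, edgeR adjusted p = 0.890). In WT 1, 49 of its 51 UMIs came from 6 goblet-like barcodes, 39 of them from a single one, and in Setdb1-KO 1 a single enterocyte-like barcode held 50 of 53 UMIs. The same barcode held 15 of the 17 Clca4a UMIs and 32 of the 40 Pmp22 UMIs of Setdb1-KO 1. Pmp22 was at 0.442 and 0.0241 CPM against 1.45 and 0.228 CPM (1.70 ± 1.07, edgeR adjusted p = 0.468). Clca4a was at 0.156 and 0.121 CPM against 0.616 and 0.0815 CPM, and Nt5e at 0.156 and 0.145 CPM against 0.181 and 0.212 CPM, too low to test. The direction of Ly6m changed with the library left out: it was −0.49 without WT 2 and −1.88 without Setdb1-KO 1. Nt5e UMIs lay mainly in enteroendocrine-like barcodes (12 of 13 in Setdb1-KO 2) and T cells (4 of 6 in WT 2).

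Within the enterocyte-like barcodes of the Lgr5+ sort, 80 and 196 in WT and 239 and 425 in Setdb1-KO, 3 of the 7 genes could be tested and 0 passed, against 0.414% of 7487 genes (0.187% lower, 0.227% higher). None of the 3 had an unadjusted p under 0.05, and DESeq2 also called 0. Sult6b2 was at 91.1 and 107 CPM in WT and 78.9 and 153 CPM in Setdb1-KO (0.18 ± 0.27, edgeR adjusted p = 0.907). Creb3l3 was at 136 and 185 CPM against 160 and 135 CPM (−0.18 ± 0.16, adjusted p = 0.812). For both genes the genotypes overlapped. Pmp22 was at 19.6 and 0 CPM against 13.7 and 0.431 CPM (0.08 ± 1.17, adjusted p = 0.996). Ada was at 0 and 0.688 CPM against 1.85 and 2.58 CPM, although stem-like barcodes of the same libraries held it at 7.87 to 9.08 CPM. Enterocyte-like barcodes held 1 of 608 Ada UMIs in WT and 11 of 539 in Setdb1-KO. In Setdb1-KO 2, 24 Ada UMIs lay in enteroendocrine-like barcodes, 17 of them in a single one.

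Genes with known places along the villus were compared next in the lineage-traced libraries, with tests adjusted over all genes. They share libraries and contrast with the choice of the 7 genes and are no independent evidence. Within enterocyte-like barcodes 25.6% of 4315 genes passed, 15.4% lower and 10.2% higher in Setdb1-KO, with a median difference of −0.07 over all genes (log2). Of the villus-top list 7 of 7 tested genes were lower, with a median of −3.55, and 6 or 7 were lower under every alternative tried. Enpp3, an ectonucleotidase, was −5.14 ± 0.59 (log2 ± SE, edgeR adjusted p = 2.36e-07) and Klf4, a transcription factor of cells that have stopped dividing, −4.37 ± 0.52 (edgeR adjusted p = 3.28e-07). Apoa4 was at 2516 and 1609 CPM in WT and 78.0 and 213 CPM in Setdb1-KO (−3.55 ± 0.45, edgeR adjusted p = 9.18e-07). Slc28a2, which takes up purine nucleosides, was −5.32 ± 0.81 (edgeR adjusted p = 1.39e-05).

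Of the villus-middle list 4 of 6 tested genes were lower (median −1.69), among them the glucose carriers Slc2a2 (−5.70 ± 0.77, edgeR adjusted p = 2.32e-06) and Slc5a1 (−2.21 ± 0.39, edgeR adjusted p = 1.19e-04). Over the 16 alternatives the median of this list was −1.99 to −1.01, and under some of them fewer of its genes passed. The villus-bottom list was split, with a median of +0.78 over 7 tested genes. Dmbt1, a mucosal defence glycoprotein, was higher (+2.03 ± 0.36, edgeR adjusted p = 1.15e-04), as was Ccl25, a chemokine for lymphocytes (+1.25 ± 0.36, edgeR adjusted p = 0.0113). The antimicrobial lectins Reg3g (−1.67 ± 0.42, edgeR adjusted p = 0.00446) and Reg3b (−1.28 ± 0.41, edgeR adjusted p = 0.0221) were lower. None of these 4 calls held without WT 1 or without WT 2, with edgeR adjusted p of 0.107 and 0.0526 for Dmbt1, 0.521 and 0.208 for Ccl25, 0.0773 and 0.356 for Reg3g and 0.284 and 0.3998 for Reg3b. With no low-count filter it was 0.263 for Ccl25, 0.0849 for Reg3g and 0.248 for Reg3b.

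The purine list, around Ada and Nt5e, had 8 of 14 tested genes lower and 0 higher within enterocyte-like barcodes (median −1.90). They include Gda, guanine deaminase, which was −4.86 ± 0.52 (edgeR adjusted p = 8.54e-08), and the others were Enpp3, Slc28a2, Dpp4 (an exopeptidase that binds adenosine deaminase in some species), Xdh (which makes uric acid), Entpd5, Entpd7 and Entpd8. Of the 14 genes of the list around Creb3l3 only 4 passed the filter on low counts, and these 4 were lower (median −3.83). Over the 16 alternatives 2 to 4 of this list were lower, with medians of −3.90 to −0.66, against 5 to 9 of the purine list (−2.02 to −0.81). Its lipid genes were among them: Apoc2, the cofactor of lipoprotein lipase, was −4.36 ± 0.50 (edgeR adjusted p = 2.36e-07), and Apoa4 is given above. The others were Cidec, a lipid-droplet protein, and Hnf4a, a nuclear receptor of enterocytes. Among enterocyte transcription factors 4 of 11 were lower (median −0.62), led by Klf4 and Maf (−2.14 ± 0.41, edgeR adjusted p = 3.30e-04). Over the 16 alternatives their median was −0.66 to −0.20, and under some of them fewer were lower or some were higher.

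Relatives of the other genes were measured less often. Of 3 tested Clca genes only Clca4b passed (−3.67 ± 0.45, edgeR adjusted p = 5.03e-07), and reads of Clca4a and Clca4b, which are close paralogs, may be shared in counting. Of 4 tested sulfotransferase and sulfate-donor genes Papss2, which makes the sulfate donor, was −2.84 ± 0.43 (edgeR adjusted p = 1.12e-05) and Sult1b1 −1.05 ± 0.37 (0.0367). Of the Pmp22 family Emp1 was −2.12 ± 0.55 (edgeR adjusted p = 0.00545) and Perp −1.19 ± 0.42 (0.0367), the 2 tested. The edgeR adjusted p without WT 1 was 0.548 for Sult1b1, 0.305 for Emp1 and 0.384 for Perp. Without WT 2 it was 0.126 for Sult1b1 and 0.130 for Perp, and without Setdb1-KO 2 it was 0.0996, 0.419 and 0.585 for Sult1b1, Emp1 and Perp. DESeq2 gave 0.1504, 0.159 and 0.309 for them. Of 2 tested Ly6 and Lypd genes and 3 tested genes of the BMP response, a signal that is strong near the villus tip, 0 passed in edgeR, with 1 and 0 at an unadjusted p under 0.05.

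Over all kept barcodes of the lineage-traced libraries the middle and top lists were lower in 7 of 7 and 7 of 8 tested genes (medians −2.12 and −3.13, against 0.01 over all genes). The bottom list was lower in 4 of 9 (median −1.20), the purine list in 10 of 24 (−0.68) and the list around Creb3l3 in 3 of 12 (−0.35). The lists of relatives gave 1 of 4 Ly6 and Lypd, 1 of 5 Clca, 3 of 7 sulfotransferase and 1 of 4 Pmp22 family genes, and 2 of 7 BMP response genes and 3 of 14 transcription factors were lower. No listed gene was higher, although single genes of the sulfotransferase, Pmp22 family, BMP and transcription factor lists were under some alternatives. Of all genes tested in this comparison 7.19% were lower and 1.54% higher. The scaling used by edgeR moved all differences of this comparison by −0.54 (log2) from those of plain CPM.

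The same lists gave few calls among the Lgr5+ sorted libraries, and some in the other direction. Over all barcodes Apoa4 was higher in Setdb1-KO, at 10.6 and 12.0 CPM in WT and 31.3 and 22.5 CPM in Setdb1-KO (+1.24 ± 0.15, edgeR adjusted p = 0.0207; 0.0538 without WT 1, 0.108 with a mitochondrial limit of 10%). Apoc2 was +0.81 ± 0.11 (edgeR adjusted p = 0.0283; 0.0667 without WT 1, 0.186 with that limit). Slc28a2 was lower, at 2.60 and 2.65 CPM against 0.652 and 0.734 CPM (−1.88 ± 0.24, edgeR adjusted p = 0.0234; 0.0667 and 0.0842 without WT 1 or WT 2). The enterocyte-like barcodes of the Lgr5+ sort held 0 Slc28a2 UMIs in all 4 libraries, and stem-like barcodes held 65 of its 100 UMIs in WT 1 and 70 of 110 in WT 2. Stem-like barcodes were 44.7 and 44.8% of those kept in WT and 29.8 and 25.4% in Setdb1-KO, and within them Slc28a2 was at 3.93 and 4.07 CPM in WT and 1.39 and 0.994 CPM in Setdb1-KO. Of the villus-top list 1 of 8 genes was thus higher and 1 lower, with a median of +0.26 (−0.01 over all genes). The purine list had 1 of 26 lower, Slc28a2, and the list around Creb3l3 3 of 12 higher, Apoa4, Apoc2 and Atf6, a sensor of protein stress in the endoplasmic reticulum. Within enterocyte-like barcodes of the Lgr5+ sort 0 of 5 villus-top, 0 of 14 purine and 0 of 8 Creb3l3-list genes passed in edgeR, with 1, 3 and 1 at an unadjusted p under 0.05.

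Other lists over all barcodes of the Lgr5+ sort gave single genes. Ly6e, a Ly6 protein of many cell types, was higher (+1.09 ± 0.08, edgeR adjusted p = 0.00361), 1 of 6 tested of its family, and so was Bambi, a decoy receptor of BMP signals (+1.499 ± 0.16, edgeR adjusted p = 0.0149), 1 of 7. Of the Clca genes 2 of 5 were lower, Clca3a2 (−1.26 ± 0.18, edgeR adjusted p = 0.0324) and Clca3b (−1.07 ± 0.16, 0.0347), and 1 of 7 sulfotransferase genes was higher, Sult2b1 (+0.63 ± 0.08, edgeR adjusted p = 0.0231). At an unadjusted p under 0.05 there were 3 of the 5 Clca genes and 6 of the 7 sulfotransferase genes, whose median was +0.39. A single gene each passed of the villus-middle list, the fructose carrier Slc2a5 (+1.06 ± 0.18, edgeR adjusted p = 0.0470), and of the villus-bottom list, Reg3b (−1.17 ± 0.20, edgeR adjusted p = 0.0470). Of these, the calls of Ly6e and Bambi held without any single library. The edgeR adjusted p without WT 1 was 0.0934 for Clca3a2, 0.0936 for Clca3b, 0.0712 for Sult2b1 and 0.136 for Slc2a5. Without WT 2 it was 0.0567 for Clca3a2 and 0.0728 for Sult2b1 and Slc2a5, and without Setdb1-KO 1 it was 0.0534 for Sult2b1, 0.102 for Slc2a5 and 0.0931 for Reg3b (0.0558 without Setdb1-KO 2). Of 4 Pmp22 family genes and 14 transcription factors 0 passed in edgeR, with 1 and 2 at an unadjusted p under 0.05. Within enterocyte-like barcodes Reg3b (−2.26 ± 0.26, edgeR adjusted p = 0.00224), Reg3g (−2.01 ± 0.37, 0.0485) and Ly6a (−3.15 ± 0.50, 0.0234) were lower. Without WT 1 or WT 2 the edgeR adjusted p was 0.274 and 0.0765 for Reg3g and 0.173 and 0.0648 for Ly6a, and DESeq2 gave 0.628 for Reg3g. With the enterocyte limit doubled Reg3b was at −2.38 with an edgeR adjusted p of 0.0903.

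The genes most like the 7 were sought among 7630 others over 62 sums of UMIs by library and cell class, which share libraries. The sums include the lineage-traced libraries by which the 7 were chosen. Likeness among the 7, and of other genes to them, follows in part from that choice and is a description only. The highest Pearson r of log2(CPM + 10) with the mean of the 7 was that of Gda (0.94), followed by Cyp3a11 (0.93), Slc30a10 (0.92), Apoa4 (0.92), Lct (0.91), Pdzk1 (0.91), Cyp3a25 (0.90), Tmigd1 (0.90), Slc34a2 (0.90) and Cyp2c66 (0.89). In enterocyte-like barcodes Cyp3a11, a drug-metabolising cytochrome, was at 1660 and 978 CPM in lineage-traced WT and at 31.2 and 22.5 CPM in Setdb1-KO. Lct, the gene of lactase, was at 147 and 109 CPM against 0 and 12.1 CPM. Among the 7 genes, Ly6m and Pmp22 followed the mean of the others most closely (r = 0.91 each), then Clca4a (0.88), Ada (0.83), Sult6b2 (0.79) and Creb3l3 (0.65). Nt5e, the scarcest, was at 0.29.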

How the data were processed

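The authors deposited UMI counts per gene and droplet barcode, unfiltered, as 10x Genomics matrices. Per the labels, the processing notes name Cell Ranger 6.1.1 and Seurat 5.0.3 and the mm10 build. Total RNA, chromatin and accessibility libraries were not analysed here. These 3′ counts cover only the end of an mRNA, and the totals per library set their precision. Barcodes were kept as stated above, with no doublet caller; 0.908 to 2.06% of kept barcodes per library passed the marker limits of 2 or more classes. A barcode took the class whose marker share was furthest over its limit, as a multiple of it (2% of UMIs for enterocytes), given at least 3 marker UMIs. The limits were set after marker shares were seen, and the 7 genes and all lists were chosen with earlier results of these data known. UMIs were summed by library and class and tested in edgeR 4.0.16 (filterByExpr, TMM, quasi-likelihood test, genotype only, Benjamini-Hochberg adjustment over all genes, threshold 0.05), with DESeq2 1.42.0 as an alternative. Scripts ran in R 4.3.3 and Python 3.11.15 and were tested on simulated counts. The genes named are the 7, of each list the 2 with the smallest adjusted p in each direction (counts of other list genes name the rest, chosen after their values were seen), Setdb1, Slc28a2, Apoa4, Enpp3 and Alpi, and the 10 most alike in profile (classes with at least 20 barcodes, genes with at least 50 enterocyte-like UMIs). Ratios of pooled UMIs have 95% exact counting intervals of the Setdb1-KO count alone, with the WT level held fixed. The SE given with an edgeR difference was derived from the test, as the absolute log2 difference over the square root of its F statistic. Thinned shares are expected values for 500 UMIs. Ly6m was matched by its Ensembl ID. The enterocyte marker list is not reported here in full. Counts of 0 are bounded by 3 counts. Alternatives varied the scaling, the tool, the low-count filter, the UMI and mitochondrial limits, the limits on genes per barcode that the study used, barcodes of mixed class, the enterocyte limit and markers, and each replicate.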

Additional observations from a re-analysis of the deposited data

Results flagged for a closer look

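The 7 genes, Slc28a2, Apoa4, Enpp3 and Alpi were compared between the experiments where a gene had at least 50 UMIs in each, and the differences of 3 of these genes between genotypes pointed in opposite directions in the Lgr5+ sort and in the lineage-traced experiment, with groups that did not overlap in either. The difference between the experiments was not tested, because sort, reporter and depth differ with it. Sult6b2 was chosen as low in the lineage-traced libraries, so only its direction in the Lgr5+ sort was free. No share over all genes was taken, so 3 genes cannot be called many or few. Over all kept barcodes the log2 ratio of mean CPM, Setdb1-KO over WT, was 0.76 for Sult6b2 in the Lgr5+ sort and −5.88 in the lineage-traced libraries. For Apoa4 over all kept barcodes it was 1.25 and −5.28, and within enterocyte-like barcodes 0.42 and −3.83, where the edgeR difference in the Lgr5+ sort turned to −0.12 with a mitochondrial limit of 10%. For Alpi, intestinal alkaline phosphatase and one of the enterocyte markers, it was 0.64 and −3.96 over all kept barcodes. The enterocyte-like share of barcodes also went in opposite directions, from 2.44% in WT to 5.99% in Setdb1-KO in the Lgr5+ sort and from 9.75 to 1.07% in the lineage-traced libraries. For Sult6b2 in the Lgr5+ sort, WT levels with the Setdb1-KO share gave 8.73 CPM and Setdb1-KO levels with the WT share 4.59 CPM, beside 4.83 CPM in WT and 8.19 CPM in Setdb1-KO. Below 50 UMIs in the Lgr5+ sort, Nt5e over all kept barcodes (30 UMIs, 0.39 and −3.76) and, within enterocyte-like barcodes, Ada (12 UMIs, 2.69 and −6.93) and Clca4a (18 UMIs, 15 of them from 1 barcode of Setdb1-KO 1, 3.22 and −4.92) also pointed in opposite directions. Other genes were not screened in this way, and some of them also pointed in opposite directions. Ly6e (+1.09 in the Lgr5+ sort and −1.04 in the lineage-traced libraries), Bambi (+1.499 and −2.15) and Apoc2 (+0.81 and −4.11) passed the threshold of edgeR in both over all kept barcodes. The lineage-traced call of Ly6e was lost without WT 1 (edgeR adjusted p = 0.278) and without WT 2 (0.0821), and −0.54 of its difference is the shift that edgeR scaling gives all genes against plain CPM. For Setdb1 the log2 ratio of mean CPM was −0.88 and 0.83. In the Lgr5+ sort the edgeR adjusted p was 0.145 for Sult6b2, 0.117 for Alpi (0.0239 with DESeq2 and, in edgeR, 0.00876 without Setdb1-KO 2) and 0.490 for Apoa4 within enterocyte-like barcodes.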

How the results depend on the processing

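In the lineage-traced libraries the 7 genes were lower in Setdb1-KO in 187 of 187 values under the alternatives, 19 of which moved by more than the spread between replicates. The genes were chosen for that direction in the same libraries, so its persistence is a description and no support. Within enterocyte-like barcodes the log2 difference of Ada was −6.43 to −3.48, of Ly6m −6.91 to −5.47, of Clca4a −4.31 to −2.83, of Pmp22 −3.21 to −1.96, of Sult6b2 −4.21 to −2.75 and of Creb3l3 −1.56 to −0.66. These ranges leave out, for the first 4 genes, the fit without Setdb1-KO 2, where Setdb1-KO 1 held 0 UMIs and WT was at least 13.5-fold, 11.5-fold, 8.38-fold and 2.65-fold higher (3 counts per library as the floor). None of 113 values in the Lgr5+ sort passed the threshold, 16 of them with a change of sign. Counts of genes called moved more. For the Lgr5+ sort over all barcodes (183) they were 502 with DESeq2, 35 with no low-count filter and 65 to 527 when a replicate was left out. Within enterocyte-like barcodes (31) they were 193 with no filter, 19 with a mitochondrial limit of 10%, 7 and 48 with the enterocyte limit doubled or halved, and 21 to 113 without a replicate. For lineage-traced libraries over all barcodes (1066) they were 586 to 2449 without a replicate. Within enterocyte-like barcodes (1106) they were 379 with DESeq2, 581 with no filter, 714 without Fabp1 and Apoa1 as markers, 723 with the limit halved, and 209 to 1675 without a replicate. Of the listed genes given with a fold change for the Lgr5+ sort over all barcodes, and Setdb1, Ly6e alone kept its call with no low-count filter (the others 0.0551 to 0.131, edgeR adjusted p). The halved limit was chosen after the data were seen. The cause was not tested. A group left with 1 library is assumed to vary like the others.

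Replicates of the genotypes share only a number, and deviations of same-numbered libraries correlated at 0.01, −0.04, 0.31 and 0.09 in the 4 comparisons. With the replicate block the counts were 51, 50, 2579 and 753, and Pmp22 within enterocyte-like barcodes of the Lgr5+ sort was −0.43. Of the listed genes given for the Lgr5+ sort over all barcodes, and Setdb1, Ly6e alone kept its call with the block (edgeR adjusted p = 0.0102), while Bambi, Setdb1, Apoa4, Slc28a2, Apoc2, Clca3a2, Clca3b, Sult2b1, Slc2a5 and Reg3b were at 0.0504 to 0.118. Within enterocyte-like barcodes of the lineage-traced libraries Sult1b1 (0.0691) and Perp (0.0770) lost theirs. The enterocyte-like share in lineage-traced libraries (−8.68 percentage points, Setdb1-KO minus WT) was −4.92 with the limit doubled, −18.6 with it halved and −11.3 to −6.06 without a replicate. In the Lgr5+ sort it was 1.28 to 5.82 without a replicate.

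Signs that changed, none past the threshold, were these log2 differences of the Lgr5+ sort. Over all barcodes, leaving out a replicate gave −1.88 to 8.29 for Ly6m, −0.29 to 1.498 for Creb3l3 and −0.18 to 0.64 for Enpp3. The highest values of Ly6m and, below, Pmp22 come from fits without WT 1, where WT 2 held 0 UMIs, and are no bound. Within enterocyte-like barcodes Pmp22 was −0.47 with DESeq2, −3.89 to 6.99 without a replicate, −0.076 with the UMI minimums swapped and −0.25 without Fabp1 and Apoa1 as markers. Sult6b2 was −0.39 to 0.62 without a replicate, −0.070 with the limit doubled and −0.090 without Fabp1 and Apoa1 as markers. Creb3l3 was −0.38 to 0.13 without a replicate, 0.062 with the limit doubled and 0.22 without Fabp1 and Apoa1 as markers. Apoa4 was −0.12 with the mitochondrial limit of 10% and Alpi −0.045 with the enterocyte limit doubled.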
